A study of Mus musculus with 12 samples.

Results

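The genes described here in the islets of NOD mice are 9 histone genes: Hist1h1c, H1f0, Hist1h2bc, H3f3b, H3f3a, H2afz, H2afx, H2afy and H2afv. All 9 were present among the 13703 genes of the authors' deposited table and the 49315 of the count table. Hist1h1c, H1f0, Hist1h2bc and H3f3b were chosen by their values, being higher after anti-CD3 in these same libraries, and the other 5 were named beside them for contrast, so the difference between treatments is given for the 9 genes as a description with no test. Hist1h2bc is neither a linker nor a replacement histone gene: it is a core H2B gene of the large histone cluster.

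The series compared islets of female NOD/ShiLtJ wild-type mice, a strain with spontaneous autoimmune diabetes, after an antibody to CD3, the T cell receptor's signalling partner, or after control IgG. Treatment of mice with normal blood glucose began at 9 weeks of age and was given weekly for 4 weeks, at 2.5 mg/kg for anti-CD3, and islets were isolated with collagenase 2 to 3 days after the last weekly dose. The libraries of polyadenylated RNA were 6 anti-CD3 and 6 IgG. The labels do not say whether 1 or several mice gave a library, so a p-value here reflects the spread of the libraries, which may be technical.

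Histones package DNA into nucleosomes, and linker histones of the H1 family bind the DNA between them. Most histone genes lie in clusters, are transcribed in S phase, and give mRNAs that end in a stem-loop and carry no poly(A) tail. Most replacement histones come from genes outside the clusters whose mRNAs are polyadenylated and made throughout the cell cycle. Some cluster genes also give polyadenylated transcripts in cells that have left the cycle. Because poly(A) RNA was selected, histone transcripts without a tail are largely outside the values.

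The promoters of 4 of these genes are shown because they hold the pairs on which the results turn: Hist1h1c and H1f0, the linker histone genes, and H3f3b and H3f3a, which encode the same histone H3.3. Each runs 5′ to 3′ on the gene's own strand from 250 bases before the RefSeq start site, on GRCm38.p6, and is taken from RefSeq, where 7 of the 9 genes matched. Capitals mark a TATA box (TATAAA or the form TATATA), the CCAAT box, the H1 box (AAACACA), the octamer (ATGCAAAT), the GC box (GGGCGG) or the cAMP response element (TGACGTCA), searched on both strands.
Hist1h1c: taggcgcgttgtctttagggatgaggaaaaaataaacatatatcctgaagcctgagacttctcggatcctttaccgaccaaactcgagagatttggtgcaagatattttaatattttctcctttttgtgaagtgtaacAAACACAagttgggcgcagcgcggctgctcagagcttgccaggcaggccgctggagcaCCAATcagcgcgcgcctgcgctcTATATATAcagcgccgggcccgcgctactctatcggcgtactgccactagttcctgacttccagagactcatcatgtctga
H1f0: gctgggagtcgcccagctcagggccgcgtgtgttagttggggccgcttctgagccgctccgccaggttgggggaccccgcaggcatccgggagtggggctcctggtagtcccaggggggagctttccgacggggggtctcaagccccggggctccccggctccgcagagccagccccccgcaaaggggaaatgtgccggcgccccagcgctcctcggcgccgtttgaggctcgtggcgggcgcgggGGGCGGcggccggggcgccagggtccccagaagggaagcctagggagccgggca
H3f3b: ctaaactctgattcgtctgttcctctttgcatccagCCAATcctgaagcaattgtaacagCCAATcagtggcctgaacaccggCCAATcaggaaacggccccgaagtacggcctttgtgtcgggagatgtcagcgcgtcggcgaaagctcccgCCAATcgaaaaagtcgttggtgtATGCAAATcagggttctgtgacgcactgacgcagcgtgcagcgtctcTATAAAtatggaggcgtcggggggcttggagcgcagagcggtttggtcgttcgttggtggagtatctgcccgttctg
H3f3a: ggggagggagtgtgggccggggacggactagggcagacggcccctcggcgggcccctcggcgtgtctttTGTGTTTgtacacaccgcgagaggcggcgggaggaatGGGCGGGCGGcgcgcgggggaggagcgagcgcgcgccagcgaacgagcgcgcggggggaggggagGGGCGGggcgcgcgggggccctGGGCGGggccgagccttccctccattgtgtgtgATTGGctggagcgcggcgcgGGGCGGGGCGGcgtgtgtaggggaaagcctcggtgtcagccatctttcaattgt

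The Hist1h1c window, at chr13:23738557-23738856 on the plus strand, held an H1 box 112 bases, a CCAAT box 54 bases and 2 overlapping TATATA matches 31 and 29 bases before the start site. The H3f3b window, at chr11:116024455-116024754 on the minus strand, held 4 CCAAT boxes, an octamer 74 bases and a TATAAA match 27 bases before it. The H3f3a window, at chr1:180813556-180813855 on the minus strand, had no TATA match and held 6 GC boxes, some of them overlapping, with a CCAAT and an H1 box match on the opposite strand. The H1f0 window, at chr15:79027962-79028261 on the plus strand, held a single GC box. G and C made up 50.3% of the Hist1h1c, 75% of the H1f0, 55% of the H3f3b and 74% of the H3f3a window. Of 32851 RefSeq windows of the same length, 37.4% held CCAAT, 35.7% GGGCGG, 13.6% TATAAA, 7.18% AAACACA, 5.67% TATATA, 1.79% TGACGTCA and 1.74% ATGCAAAT. The RefSeq start sites of H1f0, H3f3a and H3f3b lie 238, 338 and 3458 bases from the outermost start annotated by GENCODE M21, so these windows show one of the possible promoters, and a match is only a run of letters.

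Total counts were 10994337 to 19284740 per library in anti-CD3 and 11891132 to 17628347 in IgG. Exocrine transcripts made up most counts: 30 acinar genes took 68.1% to 72.0% in anti-CD3 and 32.3% to 71.5% in IgG, with 55.1% in IgG 5 and 32.3% in IgG 6. All 20 endocrine markers were detected in every library and took 1.05% to 2.22% of counts in anti-CD3, against 1.38% to 4.22% in IgG. The 20 leukocyte markers took 0.00283% to 0.0171% in anti-CD3, against 0.00301% to 0.0383% in IgG 1 to 5 and 0.206% in IgG 6. Stromal markers (10 genes) took 0.00415% to 0.0133% in anti-CD3 and 0.00824% to 0.0840% in IgG, and endothelial markers (8 genes) reached 0.0160% in anti-CD3 and 0.0683% in IgG. Of the leukocyte markers Nkg7, Itgam, Cd79b and Ms4a1 were at 0 in at least 1 library and none was at 0 in every library. In bulk RNA, fewer cells of a type and less RNA per cell cannot be told apart.

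In normalized counts the 4 genes named for being higher were all higher in every anti-CD3 library than in any IgG library. They differed by 2.22-fold for H3f3b to 4.25-fold for Hist1h1c. They were 4 of the 10 genes that passed edgeR's quasi-likelihood test at an adjusted p under 0.05 over 13115 genes tested, which is 0.0762% of those genes. DESeq2 called 3.58% of the genes tested, 2.48% higher and 1.1% lower, and edgeR's unadjusted p was under 0.05 for 18.4%. The groups also did not overlap, in this direction, for 1.2% of the genes tested. Since these are the values that chose the genes, nothing is read from the counts.

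Hist1h1c (ENSMUSG00000036181) encodes the linker histone H1.2. It lies on chromosome 13 from 23738808 to 23740367 and is annotated as protein-coding with 1 transcript. Its normalized count, the authors' deposited count divided by a size factor per library, ran from 2256 over a median of 3822 to 6443 in anti-CD3, and from 675 over 1042 to 1369 in IgG. The lowest anti-CD3 library thus lay above the highest IgG library, and the anti-CD3 libraries spread 2.86-fold among themselves. The mean was 4284 ± 1676 in anti-CD3 and 1008 ± 305 in IgG (SD, n = 6 each), a log2 fold change of 2.09 ± 0.27 (SE). Hist1h1c held 76.2% of all counts assigned to the 53 Hist1 genes of its cluster, which spans 21715763 to 23934851 on chromosome 13.

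H1f0 (ENSMUSG00000096210) encodes H1.0, the replacement linker histone that accumulates in cells that have stopped dividing. It lies on chromosome 15 from 79028450 to 79030504. It ran from 2740.4 over a median of 3741 to 4934 normalized counts in anti-CD3, and from 578 over 1303 to 1605 in IgG. The groups were again separate. The 2 lowest of the 12 were IgG 6, with 578, and IgG 5, with 708, the libraries of lowest acinar share. The mean was 3744 ± 937 in anti-CD3 and 1163 ± 424 in IgG (SD, n = 6 each), and the log2 fold change was 1.69 ± 0.26 (SE), or 1.39 ± 0.19 without IgG 5 and IgG 6.

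The proportion of the linker genes to each other varied between libraries and overlapped between the groups. Per kilobase of annotated exon, the ratio of Hist1h1c to H1f0 was 1.48 ± 0.310 in anti-CD3 and 1.19 ± 0.227 in IgG (SD, n = 6 each), with ranges of 1.05 to 1.81 and 0.923 to 1.54 that overlapped. Together they made up 0.0311% to 0.0599% of all counts in anti-CD3 and 0.0125% to 0.0206% in IgG. As a share of library totals the linker genes together thus separated the groups too, having been chosen as higher in anti-CD3. The share of all 9 genes together did not separate them. It was 0.0932% to 0.145% in anti-CD3 and 0.0525% to 0.168% in IgG, highest in IgG 6.

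Hist1h2bc (ENSMUSG00000018102) encodes a core histone H2B and lies 45900 bases from Hist1h1c on chromosome 13, from 23684199 to 23692908. It ran from 307 over a median of 461 to 578 normalized counts in anti-CD3, and from 98.1 over 199 to 235 in IgG. No library of the groups overlapped, and IgG 6 was the lowest. Its log2 fold change was 1.27 ± 0.21 (SE, n = 6 per group), or 1.08 ± 0.18 without IgG 5 and IgG 6.

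H3f3b (ENSMUSG00000016559) lies on chromosome 11 from 116021912 to 116027962 and encodes H3.3, which chaperones place in chromatin outside S phase. It was the most abundant of the 9 genes. It ran from 7302 over a median of 9203 to 13769 normalized counts in anti-CD3, and from 3672 over 4417 to 5471 in IgG. The groups did not overlap, and the IgG libraries lay within 1.49-fold of each other, the narrowest IgG spread among the 9 genes. The mean was 9984 ± 2724 in anti-CD3 and 4500.3 ± 589.5 in IgG (SD, n = 6 each), with a log2 fold change of 1.15 ± 0.18 (SE). IgG 6, low for H1f0 and Hist1h2bc, was the highest IgG library for H3f3b.

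**Figure D1:**
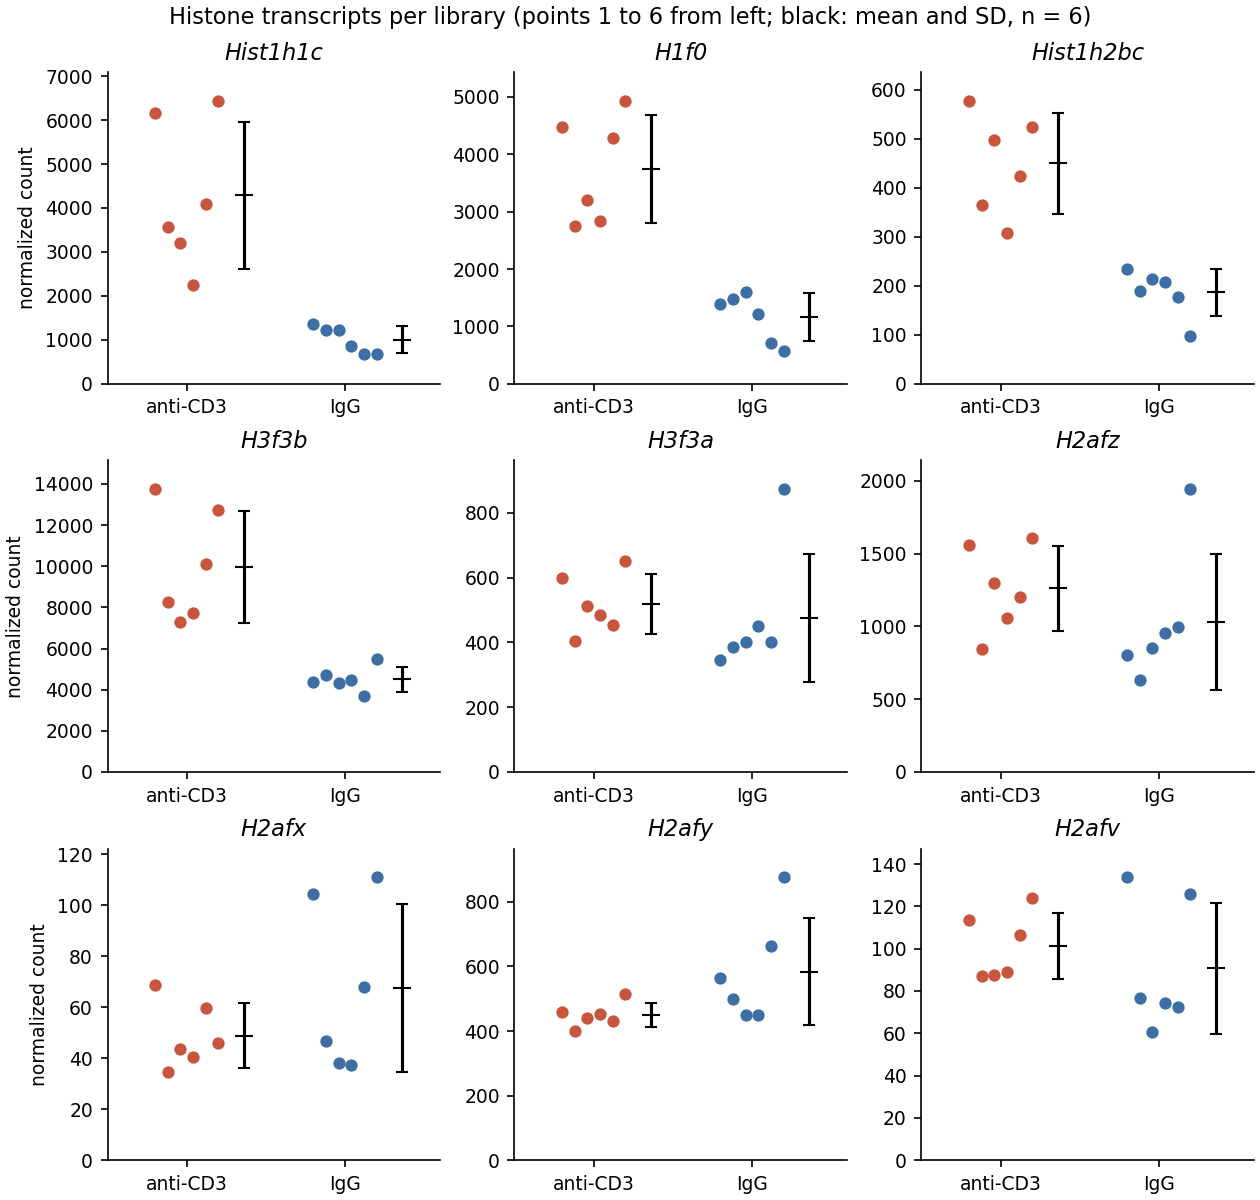
Normalized count of each of the 9 histone genes in 6 anti-CD3 and 6 IgG libraries, on linear axes that start at 0; points are libraries 1 to 6 from left to right and black marks give the mean and SD. The anti-CD3 points lie above all IgG points for Hist1h1c, H1f0, Hist1h2bc and H3f3b and overlap them for the other 5, with IgG 6 the highest IgG point for H3f3a (874) and H2afz (1946).

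H3f3a (ENSMUSG00000060743), on chromosome 1 from 180800832 to 180813943, encodes the same H3.3 as H3f3b. It ran from 405 over a median of 498 to 651 normalized counts in anti-CD3, and from 345 over 400.3 to 874 in IgG. The ranges overlapped, but each of the 6 anti-CD3 libraries exceeded the IgG median, and 2 IgG libraries, IgG 4 and IgG 6, exceeded the lowest anti-CD3 library. The log2 fold change was 0.12 ± 0.21 (SE, n = 6 per group), 0.39 ± 0.16 without IgG 5 and IgG 6, and 0.51 ± 0.20 once the acinar score was a covariate.

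Since H3f3b was chosen by its difference and H3f3a to contrast with it, the balance within the H3.3 pair is a description with no test. H3f3b exceeded H3f3a per kilobase by 16.7-fold to 27.1-fold in anti-CD3 and by 7.37-fold to 14.9-fold in IgG, where IgG 6 had the lowest ratio. H3f3b made up 95.7% ± 0.826 of the pair in anti-CD3 and 91.9% ± 2.07 in IgG (SD, n = 6 each). The summed H3.3 level was 3502 ± 935 normalized counts per kilobase in anti-CD3 and 1648 ± 245 in IgG (SD, n = 6 each), with ranges of 2600.3 to 4798 and 1348 to 2088.

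**Figure D2:**
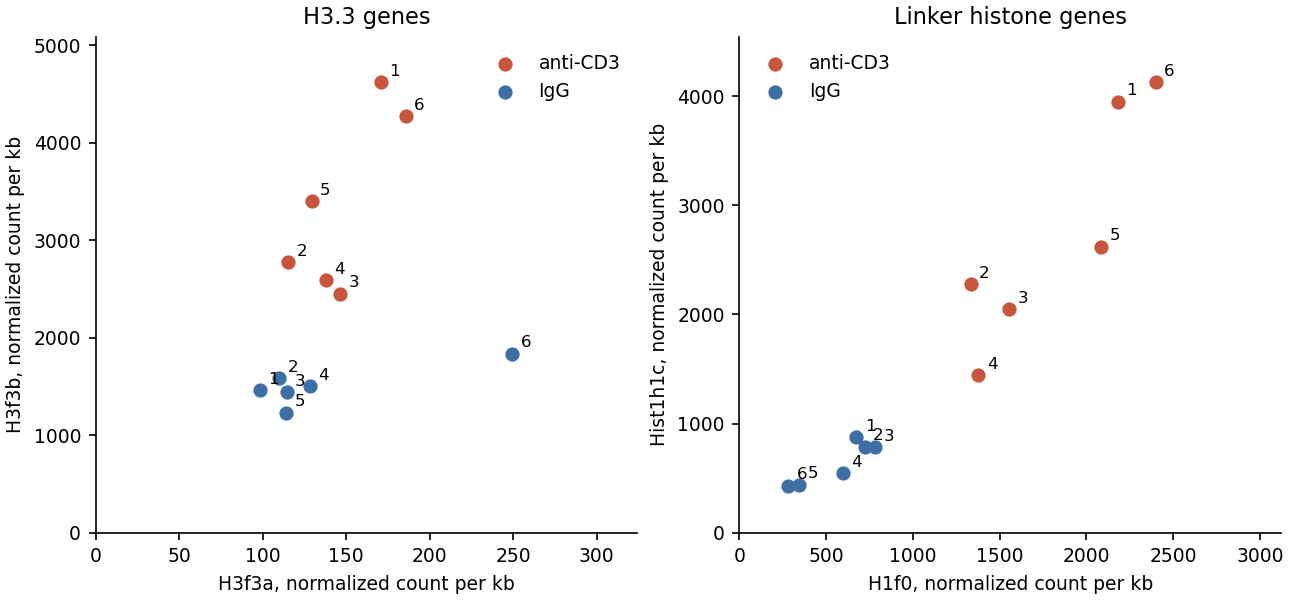
Normalized count per kilobase of exon of H3f3b against H3f3a (left) and of Hist1h1c against H1f0 (right) in 6 anti-CD3 and 6 IgG libraries, on linear axes, with each point numbered by library. The H3.3 genes separate the groups along H3f3b, with IgG 6 far to the right on H3f3a. The linker genes, both chosen as higher in anti-CD3, are higher together there, at ratios of 0.923 to 1.81 over all libraries.

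H2A.Z, a variant of H2A found at promoters and enhancers, is encoded by H2afz and H2afv. H2afz (ENSMUSG00000037894; chromosome 3, 137864487 to 137866922) ran from 845 over a median of 1249 to 1605 normalized counts in anti-CD3, and from 632 over 904 to 1946 in IgG. IgG 6 held the highest value of all 12, and 4 of 6 IgG libraries lay above the lowest anti-CD3 library. Its log2 fold change was 0.29 ± 0.24 (SE), against 0.64 ± 0.19 without IgG 5 and IgG 6, 0.73 ± 0.23 with the acinar covariate and -0.06 ± 0.24 with an offset for transcript length. H2afv (ENSMUSG00000041126; chromosome 11, 6427229 to 6444443) ran from 87.0 over 97.8 to 124 in anti-CD3, and from 60.8 over 75.5 to 134 in IgG, with a log2 fold change of 0.15 ± 0.21 (SE). Its groups overlapped, and IgG 1, with 134, and IgG 6, with 126, were the highest of the 12. H2afz exceeded H2afv by 11.4-fold ± 1.70 in anti-CD3 and 10.8-fold ± 3.44 in IgG per kilobase (SD, n = 6 each).

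H2afx (ENSMUSG00000049932; chromosome 9, 44334694 to 44336077), whose product H2A.X is phosphorylated around DNA breaks, ran from 34.5 over a median of 44.8 to 68.6 normalized counts in anti-CD3, and from 37.2 over 57.3 to 111 in IgG. It was the least abundant of the 9, with raw counts of 31 to 280. The groups overlapped, with IgG 6 and IgG 1 highest. Its log2 fold change was -0.49 ± 0.30 (SE), or -0.25 ± 0.32 without IgG 5 and IgG 6. H2afy (ENSMUSG00000015937; chromosome 13, 56073619 to 56136361) encodes macroH2A1, a variant with a large globular tail domain that is enriched on silent chromatin. It ran from 401 over 445 to 516 in anti-CD3, and from 449 over 532 to 877 in IgG, and every anti-CD3 library lay below the IgG median. The 2 highest libraries were IgG 6, with 877, and IgG 5, with 663, so H2afy and H1f0 ordered these libraries oppositely. The log2 fold change of H2afy was -0.37 ± 0.16 (SE), -0.13 ± 0.13 without IgG 5 and IgG 6, and -0.02 ± 0.14 in the fit with the acinar covariate.

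**Figure D3:**
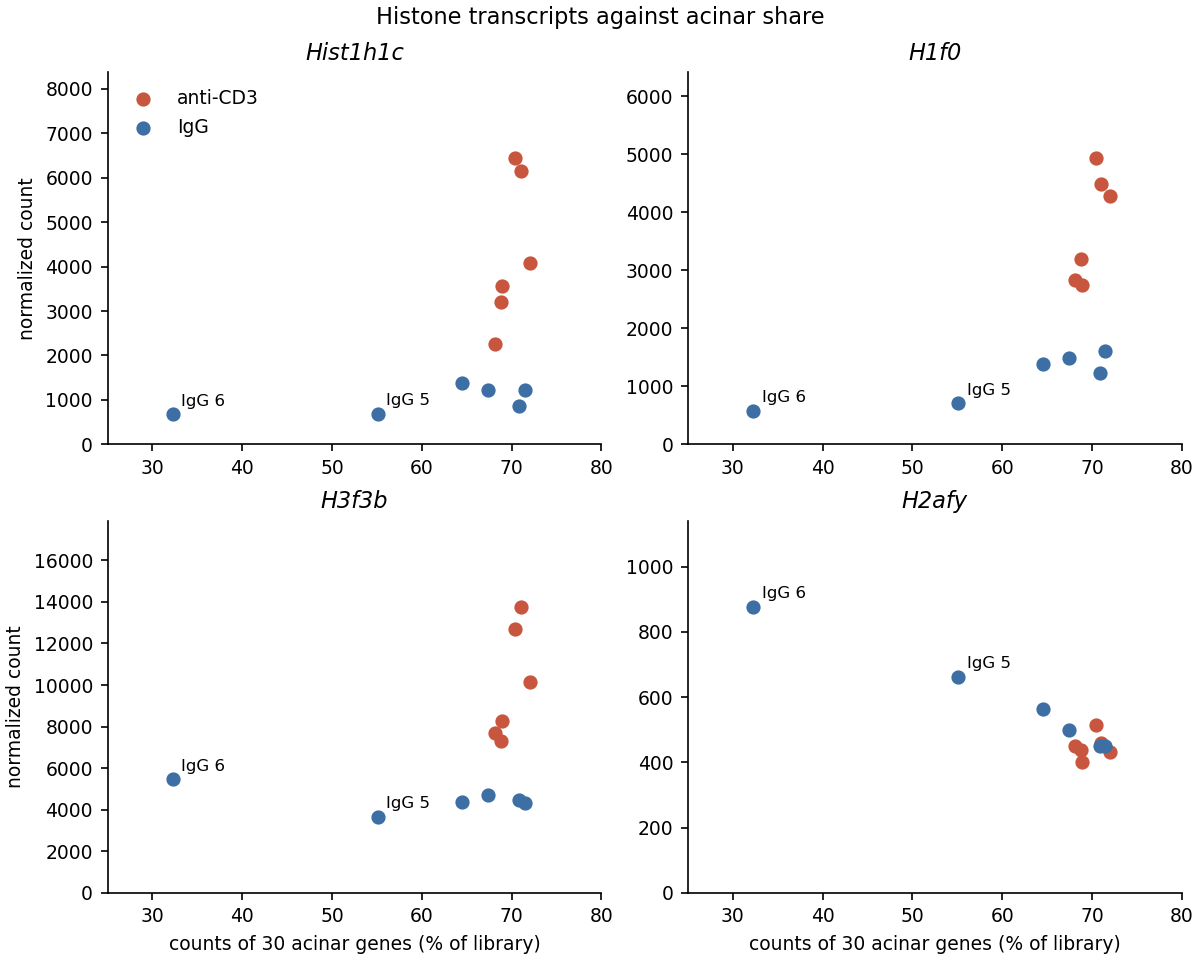
Normalized count of Hist1h1c, H1f0, H3f3b and H2afy (y axes from 0) against the share of counts taken by 30 acinar genes (x axis, percent, not from 0) in 6 anti-CD3 and 6 IgG libraries. The anti-CD3 libraries lie between 68.1% and 72.0%; IgG 5 (55.1%) and IgG 6 (32.3%) stand apart and are low for H1f0 and high for H2afy.

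The acinar share moved with several of these values, and its part in them was not tested beyond the values given. The acinar list had 29 of 30 members at higher values in anti-CD3 (median log2 fold change 0.68), against 44.8% of all genes, and 0 passed edgeR and 2 DESeq2, which called 2.48% of all genes higher. Without IgG 5 and IgG 6, 27 of the 30 were higher and the median was 0.33. IgG 1 to 4 lay at 64.5% to 71.5% acinar counts, close to the anti-CD3 libraries. In IgG 1 to 4 the highest value was 1369 for Hist1h1c, 1605 for H1f0, 235 for Hist1h2bc and 4720.2 for H3f3b. That each lies below the lowest anti-CD3 library follows from the separation of the full groups, so nothing is read from it. Without IgG 5 and IgG 6 the log2 fold change was 1.87 ± 0.28 for Hist1h1c and 1.16 ± 0.20 for H3f3b (SE). With the acinar covariate the 4 genes had 1.73 ± 0.29 (Hist1h1c), 1.20 ± 0.19 (H1f0), 0.89 ± 0.19 (Hist1h2bc) and 1.17 ± 0.21 (H3f3b). Of the 4, H1f0 alone passed edgeR's adjusted p under 0.05 without IgG 5 and IgG 6, and 0 passed with the covariate. Over all genes tested, 1 of 13203 and 0 of 13115 passed in these fits. Because this contrast chose the 4 genes, nothing is read from which of them passed. The authors' deposited table gave log2 fold changes of 2.09 for Hist1h1c, 1.69 for H1f0, 1.27 for Hist1h2bc and 1.15 for H3f3b.

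Per kilobase, the order of levels in anti-CD3 was H3f3b (3355 normalized counts), Hist1h1c (2746), H1f0 (1822), H2afz (709.9), Hist1h2bc (389), H3f3a (148), H2afy (66.1), H2afv (62.0) and H2afx (35.3). In IgG it was H3f3b (1512), Hist1h1c (646), H2afz (581), H1f0 (566), Hist1h2bc (161), H3f3a (136), H2afy (85.8), H2afv (55.5) and H2afx (48.8). In anti-CD3 the ranges of neighbours overlapped for H3f3b and Hist1h1c, Hist1h1c and H1f0, H2afz and Hist1h2bc, and H2afy and H2afv. In IgG all neighbours overlapped except H3f3b with Hist1h1c and H1f0 with Hist1h2bc. H1f0 and H2afz thus did not overlap in anti-CD3 (1334 to 2401 and 476 to 903) and did in IgG (281 to 781 and 356 to 1096). Levels per kilobase use the union of annotated exons, so a gene that uses short transcripts is understated.

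With the group means removed, which takes out the difference that chose the genes, 5 of 36 pairs of the 9 genes correlated over the 12 libraries at an adjusted p under 0.05 (permutation test within groups, two-sided, 100000 permutations, adjusted over 36 pairs). The share of all gene pairs that correlate so was not computed, so the count is not read as particular to histone genes. A gene other than a histone, Reep5, had r = 0.96 with H1f0. Hist1h1c and H1f0 had a Pearson r of 0.83 (permutation p = 0.00034, adjusted p = 0.0106) and a Spearman rho of 0.80 (permutation p = 0.00195, adjusted p = 0.0351), and r was 0.87 in anti-CD3 and 0.91 in IgG. Hist1h2bc correlated with Hist1h1c (r = 0.75, permutation p = 0.00239, adjusted p = 0.0228; rho = 0.76, permutation p = 0.00955, adjusted p = 0.105) and with H1f0 (r = 0.80, permutation p = 0.00253, adjusted p = 0.0228; rho = 0.71, permutation p = 0.0116, adjusted p = 0.105). Of these 3 pairs, the first also passed by rho, and without IgG 5 and IgG 6 none of the 3 did by r (adjusted p = 0.0995, 0.187 and 0.256). The acinar score moved with the same genes: as a description over the 12 libraries, group means removed, its r was 0.86 with H1f0, 0.81 with Hist1h2bc and 0.55 with Hist1h1c. Without IgG 5 and IgG 6 these were 0.57, 0.42 and 0.32. A score of S phase and mitosis genes, made likewise, then had r = 0.56, 0.30 and 0.61 with the same genes. Over the 12 libraries its r was -0.32, -0.46 and 0.04. The part of either score in the 3 pairs was not tested. Leaving out the 2 libraries farthest from the median of the first gene gave r = 0.86, 0.68 and 0.73 for these 3 pairs.

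Among the contrast genes, H3f3a and H2afz had r = 0.92 (permutation p = 0.00059, adjusted p = 0.0106) and rho = 0.89 (permutation p = 0.00054, adjusted p = 0.0194), and r was 0.78 without the 2 farthest libraries. H2afx and H2afv had r = 0.85 (permutation p = 0.00474, adjusted p = 0.0341) and rho = 0.77 (permutation p = 0.0218, adjusted p = 0.107), and 0.68 without the farthest 2. H3f3b and H3f3a, which encode the same protein, had r = 0.55 (permutation p = 0.0286, adjusted p = 0.122) and rho = 0.36 (permutation p = 0.256, adjusted p = 0.511), and r = 0.47 without the farthest 2. Without IgG 5 and IgG 6, over 10 libraries, 0 pairs passed (smallest adjusted p = 0.0995), while r for the 5 pairs stayed between 0.66 and 0.87. The 12 points share library, depth and scaling, and IgG 6 lies far from the rest.

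**Figure D4:**
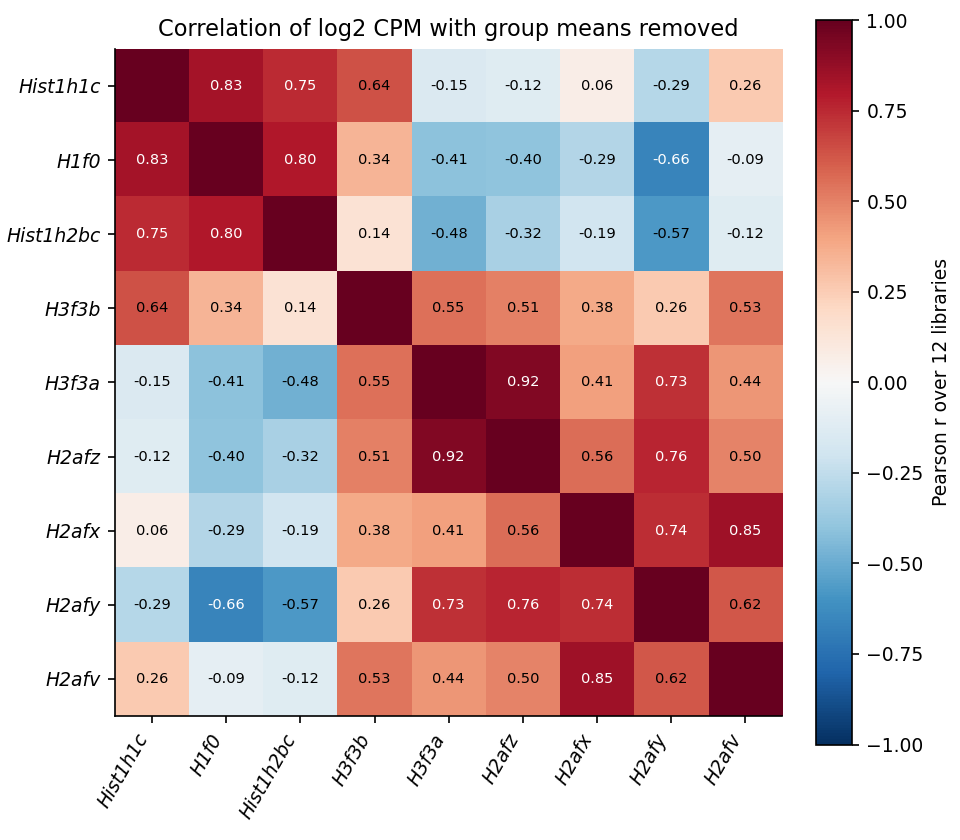
Pearson r of log2 CPM over 12 libraries for each pair of the 9 histone genes, after subtracting the anti-CD3 mean from the 6 anti-CD3 libraries and the IgG mean from the 6 IgG libraries; red is positive and blue negative. Hist1h1c, H1f0 and Hist1h2bc form a block with r of 0.75 to 0.83, and H3f3a and H2afz reach 0.92.

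The signs within groups were not always alike. Hist1h2bc and H3f3a had r = 0.72 over the 6 anti-CD3 libraries and -0.95 over the 6 IgG libraries, and H1f0 and H2afy had 0.64 and -0.90 (pooled r = -0.66, permutation p = 0.0666, adjusted p = 0.184; rho = -0.49, permutation p = 0.189, adjusted p = 0.509). For H1f0 and H2afy r was -0.14 without the 2 farthest libraries, IgG 5 and IgG 6, and 0.41 with those libraries left out before the group means were taken. The pooled r of Hist1h2bc and H3f3a was -0.48 (permutation p = 0.175, adjusted p = 0.333; rho = 0.01, permutation p = 0.974, adjusted p = 0.974), and 0.43 without the 2 farthest libraries, IgG 6 and anti-CD3 4.

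Of 6283 genes with a mean log2 CPM of at least 3, histone and predicted genes left out, the closest to Hist1h1c in this group-centred pattern over 12 libraries was Atf3, a stress-induced transcription factor, with r = 0.90. Ddit3, which encodes the transcription factor CHOP, was the fifth closest, with r = 0.84, after Rex1bd (0.87), Josd2, a deubiquitinase (0.86), and Stap2 (0.84). Their values without IgG 5 and IgG 6 ran from 0.80 (Josd2) to 0.91 (Atf3). Closest to H1f0 were Reep5 (0.96), Ift20 (0.95), Bckdhb (0.94), Fkbp11 (0.94) and Tmed3 (0.93), and closest to Hist1h2bc were Tceal9 (0.93), Fuom (0.91), Chchd7 (0.91), Tmed10 (0.90) and the amylase gene Amy1 (0.90). Without IgG 5 and IgG 6 these were lower, at 0.75 (Tmed3) to 0.88 (Reep5) for H1f0 and 0.77 (Chchd7) to 0.86 (Fuom) for Hist1h2bc. Tmed3 and Tmed10 encode carriers between the endoplasmic reticulum and the Golgi, Fkbp11 a prolyl isomerase of the endoplasmic reticulum, and Bckdhb a subunit of branched-chain ketoacid dehydrogenase. Closest to H3f3b were Nudt4 (0.85), the ubiquitin gene Ubb (0.84), the lysosomal membrane gene Lamp1 (0.84), the immunoproteasome gene Psmb10 (0.83) and the peroxiredoxin gene Prdx6 (0.82). Without IgG 5 and IgG 6 they ran from 0.84 (Psmb10) to 0.89 (Ubb). As the highest among 6283 genes, all these r values are high partly by selection. In the treatment comparison itself these 20 genes had log2 fold changes from 0.02 (Prdx6) to 1.59 ± 0.32 (Atf3; SE), and 0 passed edgeR over all genes (adjusted p = 0.0646 for Ddit3 and 0.0659 for Atf3).

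The annotation held 79 other histone genes, of which 16 passed the filter on low counts, 14 had no count and 37 had fewer than 10 counts over all libraries. Of the 16 tested, 12 had higher values in anti-CD3, and the median log2 fold change was 0.61, against -0.05 over all genes tested, of which 44.8% were higher. With edgeR 0 of the 16 passed over all genes, against 0.0762% of all genes, and 9 were higher and 0 lower at an unadjusted p under 0.05, against 9.68% and 8.68% of all genes. These 9 and 0 became 5 and 0 without IgG 5 and IgG 6, and 2 and 1 with the acinar covariate, where the median was 0.38; with the length offset the median was 0.37 and 9 of the 16 were higher. DESeq2 called 4 of them higher (Hist1h1e, Hist1h2al, Hist1h4h and Hist1h4i), against 2.48% of all genes. Genes with a Hist symbol, the naming of the clusters, made up 12 of the 16, with 10 higher and a median of 0.84, or 0.51 with the acinar covariate; they include Hist1h2al, which lies outside the cluster. The 4 replacement genes, with 2 higher and 2 lower, had a median of -0.19. That median was -0.06 without IgG 5 and IgG 6 and turned to 0.16 with the acinar covariate and to 0.07 over the 3 that passed a filter of CPM above 1 in 6 libraries.

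Hist1h4i, a histone H4 gene, came nearest to the 4 higher genes, at 105 to 397 normalized counts (median 175) in anti-CD3 and 45.0 to 97.9 (median 57.0) in IgG. It was the only 1 of the 16 without overlap between the groups, with a log2 fold change of 1.69 ± 0.33 (SE, n = 6 per group; edgeR adjusted p = 0.0646). The linker histone gene Hist1h1d ran from 35.3 to 132 in anti-CD3 and from 18.5 to 66.4 in IgG, with 1.19 ± 0.38 (SE; edgeR adjusted p = 0.141). The most abundant of the 16 was Hist1h2al, annotated as a processed pseudogene of the H2A type on chromosome 13 from 51202727 to 51203065, outside the cluster. It ran from 511 to 909 in anti-CD3 and from 152 to 634 in IgG, at 0.96 ± 0.28 (SE; edgeR adjusted p = 0.121). Hist1h2be, an H2B gene, had 0.85 ± 0.35 and Hist3h2a 0.74 ± 0.26 (SE; edgeR adjusted p = 0.230 and 0.173).

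The other replacement genes had smaller differences. H2afj, which encodes the H2A variant H2A.J, had 478 ± 129.6 normalized counts in anti-CD3 and 343 ± 94.0 in IgG (SD, n = 6 each), a log2 fold change of 0.48 ± 0.20 (SE; edgeR adjusted p = 0.227). H2afy2, which encodes macroH2A2, was at 0.08 ± 0.19, and Cenpa, the H3 variant of centromeres, at -0.66 ± 0.54 (SE; edgeR adjusted p = 0.848 and 0.518). Cenpa ran from 23.1 to 110.1 in anti-CD3 and from 18.0 to 187 in IgG, with the highest value in IgG 6.

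**Figure D5:**
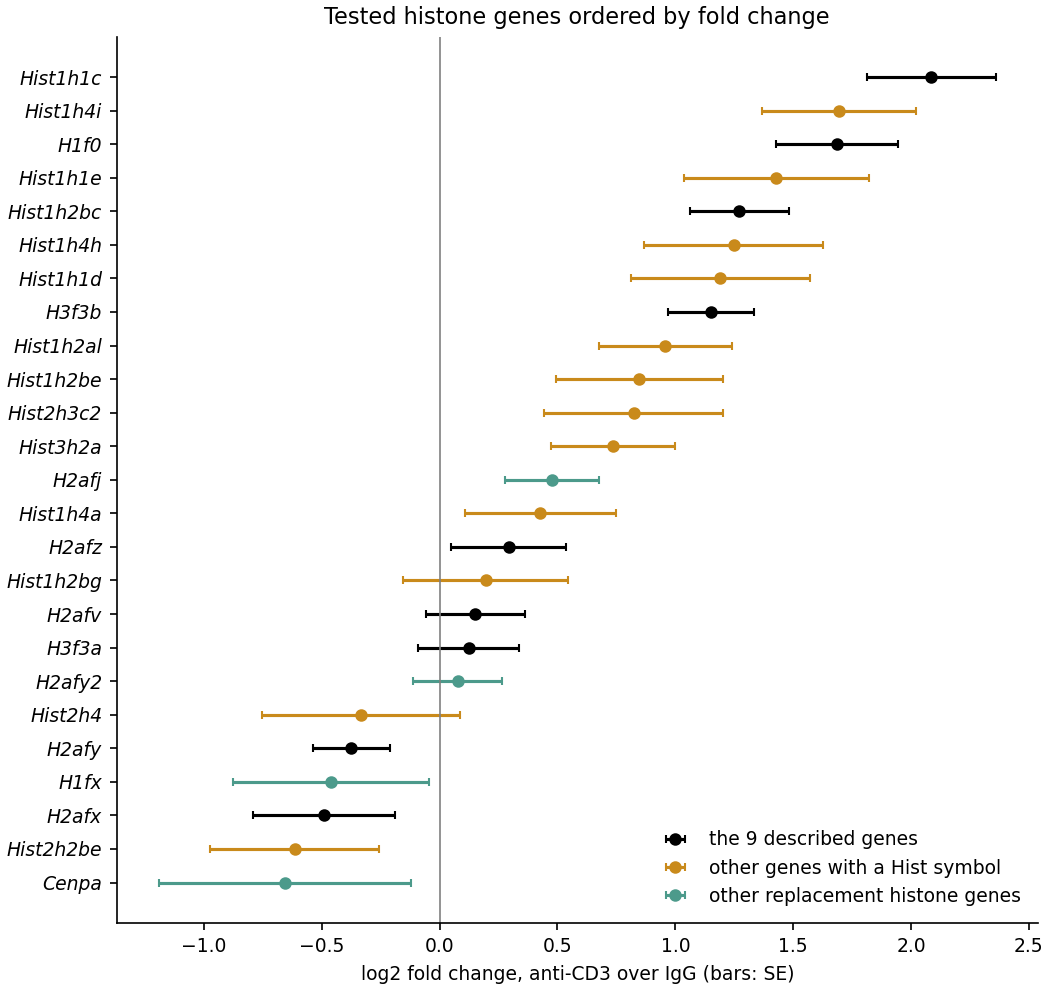
Log2 fold change, anti-CD3 over IgG, with its SE (bars) for the 25 histone genes tested, ordered by value; black marks the 9 described genes, orange other genes with a Hist symbol and green other replacement genes. Hist1h1c, Hist1h4i and H1f0 lead at 2.09, 1.69 and 1.69, and the H3f3a, H2afz and H2afv values lie between 0.12 and 0.29.

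Genes that place, process or accompany histones had no member past edgeR over all genes, in either direction, with DESeq2 also at 0. Among all genes tested 44.8% had higher and 55.2% lower values, and 9.68% were higher and 8.68% lower at an unadjusted p under 0.05. Of 23 tested histone chaperones and exchange factors, 4 had higher and 19 lower values in anti-CD3, and their median log2 fold change was -0.16, and 1 was higher and 2 lower at an unadjusted p under 0.05. Ino80, a nucleosome remodeller, was at -0.32 ± 0.12 and Ep400, a subunit of an H2A.Z exchange complex, at -0.45 ± 0.18 (SE; edgeR adjusted p = 0.198 and 0.201). Of 16 genes of histone mRNA 3′ processing and decay, 5 had higher and 11 lower values, with a median of -0.13 and 1 lower at an unadjusted p under 0.05, Ints3 at -0.33 ± 0.15. Casp8ap2, needed for histone transcription, was at -0.45 ± 0.22 (SE; edgeR adjusted p = 0.301). Of 14 genes of the polyadenylation machinery 13 had lower values, with a median of -0.15 and 2 lower at an unadjusted p under 0.05, Rbbp6 at -0.31 ± 0.12 and Cstf3 at -0.37 ± 0.16 (SE). Of 8 tested high mobility group genes, whose proteins share chromatin sites with linker histones, 3 had higher and 5 lower values and 0 reached an unadjusted p under 0.05. Hmgb1 was at 0.25 ± 0.13 and Hmgn3 at -0.40 ± 0.20 (SE). The direction of the high mobility group list depended on the libraries and the covariate, and that of the chaperone list on the covariate. The chaperone list had 8 higher and 15 lower values without IgG 6 (median -0.09) and 12 and 11 with the acinar covariate (median 0.001). The high mobility group list had 5 higher and 3 lower values without IgG 6 (median 0.04) and likewise with the acinar covariate (median 0.06). With that covariate the 3′ processing and polyadenylation medians were -0.02 and -0.07, and they stayed negative in every alternative.

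No gene of S phase and mitosis passed the test. Of 17 tested genes, 3 had higher and 14 lower values in anti-CD3, and the list median was -0.57 (log2). Neither edgeR nor DESeq2 called any of the 17 (0 and 0), with 0 higher and 2 lower at an unadjusted p under 0.05 in edgeR, against 9.68% and 8.68% of all genes. Without IgG 6 the list had 7 higher and 10 lower values and a median of -0.05, and with the acinar covariate 14 higher and 3 lower and a median of 0.18. Mcm6 and Mcm4, subunits of the replicative helicase, were at -0.87 ± 0.38 and -0.99 ± 0.42 (SE; edgeR adjusted p = 0.245 and 0.230). The summed share of the 22 genes was 0.00547% to 0.00900% of counts in anti-CD3, against 0.00578% to 0.0155% in IgG 1 to 5 and 0.0652% in IgG 6. Aurkb and Birc5 were at 0 in at least 1 library.

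Reads of histone genes can be shared between copies, and the handling of such reads is not given in any source used. Of the runs of 50 bases in each gene's GENCODE M21 transcripts, on either strand, the share also found in other genes' transcripts was 8.54% for Hist1h1c, 5.68% for H1f0, 6.86% for H3f3b and 30.6% for Hist1h2bc, where Hist1h2bc shared most with Hist1h2bg. It was 35.4% for H2afz, 27.1% for H3f3a, 9.66% for H2afx, 5.94% for H2afy and 0% for H2afv. Among the other named histone genes it was 67.6% for Hist1h2al and 28.9% for Hist1h4i. The runs shared by H3f3a were found in 193 other genes. The gene sharing the most was Gm17275, a non-coding gene on its opposite strand, which had 1 to 42 counts per library.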

How the data were processed

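Libraries were made from islet poly(A) RNA with random priming, per the labels' protocols. Trimmomatic 0.36, STAR 2.5.2b, featureCounts of Subread 1.5.2, DESeq2 and GRCm38 (mm10) are named per the submitters' processing notes, with no order or options. The authors deposited whole-number counts for 49315 genes and a table with a normalized signal per library, which equals the counts divided by 1 size factor, a log2 fold change and p-values. Symbols came from GENCODE M21. Every per-sample column was matched to a library.

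Groups came from titles. Counts were tested in R 4.3.3 with edgeR 4.0.16 (TMM, filterByExpr with minimum count 10, robust quasi-likelihood test, Benjamini-Hochberg over 13115 genes, two-sided). Alternatives used DESeq2 1.42.0 and limma 3.58.1 among others. The procedure was tested on simulated data. Counting depth limits the precision of low genes such as H2afx.

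The 9 genes and all lists were chosen with earlier results of these data known. The genes named beside them are the 8 most abundant other histone genes tested, of each list the 2 genes with the smallest p, and the 5 genes most like each of Hist1h1c, H1f0, Hist1h2bc and H3f3b; of the cell type lists only summed shares are given. The acinar score is the mean log2 CPM (prior count 2) of 30 acinar genes, and the length offset a lowess trend (span 0.3) over the longest transcript.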

Additional observations from a re-analysis of the deposited data

Results flagged for a closer look

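In a group of 6, a library was singled out where its gap to the nearest other library, over the range of the group, exceeded Dixon's critical value of 0.625. This was done for 34 groups, the 9 genes and 8 other histone genes in both treatments, and chance marks about 1 in 20 groups. It marked 5 values, all in IgG. IgG 6 had 874 normalized counts of H3f3a, against 345 to 449.6 in the other IgG libraries. The same library had 1946 of H2afz, against 632 to 998, and 187 of Cenpa, against 18.0 to 79.4. IgG 6 was also the library with the lowest acinar share (32.3%) and the highest share of S phase and mitosis transcripts (0.0652%), and their part in these values was not tested. IgG 1 had 523 normalized counts of H2afj, against 251 to 349 in the others. IgG 3 had 66.4 of Hist1h1d, against 18.5 to 27.3.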

How the results depend on the processing

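The log2 fold changes of Hist1h1c, H1f0, Hist1h2bc and H3f3b stayed positive in all 23 alternatives each. They ran from 1.73 to 2.22, 1.20 to 1.80, 0.89 to 1.37 and 1.04 to 1.23. For Hist1h1c, H1f0 and Hist1h2bc the lowest value came with the acinar covariate, more than 1 SE below the main value. With the acinar score as a covariate H3f3a was at 0.51 and H2afy at -0.02 (-0.0248), the highest value of each, while their lowest values were 0.0555 and -0.435. H2afz and H2afv, both low positive values, went below 0 with the length offset (-0.06 and -0.01). The count of genes called over the whole table was 10. It was 469 with DESeq2, 167 with no filter, 135 with limma-voom, 4 with the length offset, 1 with IgG 5 and IgG 6 left out, and 0 with the acinar covariate or the replicate block; leaving out 1 library gave 0 to 203 (203 without anti-CD3 2; 0 without anti-CD3 1, anti-CD3 5, anti-CD3 6 or IgG 5). Of the 9 genes, 4 were called in the main test, 0 without any 1 of those 4 libraries, 1 without anti-CD3 3, IgG 1 or IgG 4, and 2 without IgG 2 or IgG 3. The called genes were chosen by this contrast, so nothing is read from these counts about the genes. Of the other histone genes 0 were called in the main test, 4 with DESeq2, 2 with no filter (Hist1h1e and Hist1h4i), 1 with limma-voom (Hist1h2al), and 0 to 1 with 1 library left out (1 without anti-CD3 2, Hist1h4i). The chaperone, 3′ processing, polyadenylation, high mobility group and S phase lists had 0 calls in every alternative, although list medians moved: leaving out 1 library gave -0.09 to 0.04 for high mobility group genes, turning positive without anti-CD3 4, anti-CD3 5, IgG 1 or IgG 6, -0.09 for chaperones without anti-CD3 1 or IgG 6, -0.09 and -0.07 for 3′ processing without anti-CD3 1 and IgG 1, and -0.38 and -0.05 for S phase without anti-CD3 2 and IgG 6. The median of the 4 replacement genes was -0.12 to -0.07 without anti-CD3 5, anti-CD3 6, IgG 1 or IgG 6. The number of correlated pairs, 5, was 0 without IgG 5 and IgG 6. The cause of these changes was not tested. Replicate numbers are shared by the groups, but same-numbered libraries deviated together by r from -0.29 to 0.55, and 2 of 6 matched their own number best, so the numbers were not used as pairs; the block gave 2.05 for Hist1h1c, 1.74 for H1f0, 1.29 for Hist1h2bc and 1.12 for H3f3b.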
